A study of Mus musculus with 12 samples.

Results

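AGO2-bound RNA of wild-type (WT) mouse tibialis anterior muscle is described here from every peak listed for the total chimeric immunoprecipitated libraries of WT muscle against their paired inputs. There were 92451 such peaks in 1 library set (set 1) and 244814 in the other (set 2), which makes 337265 of the 713343 peaks of WT and mir-486 KO muscle listed over input. The rule took all of them, whatever their value. The WT mice were male, 6 months old and labelled C57BL/6, with no transgene, treatment or altered allele. The mir-486 KO mice, used below only for values set side by side, had the same sex and age, carried the genotype miR-486-/- and were labelled FVB N/J, whereas the study's methods describe a C57BL/6J background. Whole muscle was used, so myofibres, vessels, nerve and connective tissue all contribute RNA. Each set holds 1 WT library and 1 input, and the series text speaks of 3 samples per genotype run in duplicate without tying them to the sets, so whether these are separate mice is not known and n = 2 measures the spread between libraries. The labels name no batch apart from the set. In whole muscle, a weaker signal for a transcript of 1 cell type can come from fewer cells of that type or less RNA per cell, and these cannot be told apart.

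AGO2 is the Argonaute protein that carries a microRNA and holds it against a target RNA. The microRNA pairs with the target chiefly through its seed, bases 2 to 8, most often in the 3′ untranslated region (UTR) of an mRNA, and the complex then lowers the stability or translation of that mRNA. Skeletal muscle is known for a small group of abundant microRNAs called myomiRs, among them miR-1, miR-206, miR-133 and miR-486. In cross-linking and immunoprecipitation, ultraviolet light binds AGO2 to the RNA it touches, so the reads come both from the microRNAs themselves and from their target sites. In the chimeric version of the method used here, a ligation can also link a microRNA to its bound target in a single read.

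Leading microRNAs enriched in both WT sets are shown first, because the complements of these seeds, apart from that of miR-99a, are words searched for in the target peaks below. Each line gives the mature microRNA from RefSeq (GRCm38.p6), 5′ to 3′, with its seed in capitals.
miR-133b-3p: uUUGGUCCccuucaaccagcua
miR-206-3p: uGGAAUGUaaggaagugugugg
miR-30e-5p: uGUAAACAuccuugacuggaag
miR-30a-5p: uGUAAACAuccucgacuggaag
miR-99a-5p: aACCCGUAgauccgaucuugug
miR-27a-3p: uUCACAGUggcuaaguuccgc
miR-29a-3p: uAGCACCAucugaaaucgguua
miR-22-3p: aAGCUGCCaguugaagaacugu
miR-23a-3p: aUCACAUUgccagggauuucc
miR-16-5p: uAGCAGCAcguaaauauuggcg
let-7c-5p: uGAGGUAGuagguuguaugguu
miR-26a-5p: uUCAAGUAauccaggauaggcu
By the lower fold of the sets, the first was miR-133b-3p (chr1:20682834-20682855, plus strand), with a log2 fold over input of 9.41 in set 1 and 10.09 in set 2.

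A peak is called enriched here when its deposited log2 fold over input is at least 3 and its deposited −log10 p at least 3. In set 1, 3297 of 92451 peaks were enriched, 3.57% of the list. In set 2, 3479 of 244814 were, 1.42% of the list. The p-value belongs to a comparison of reads between 1 immunoprecipitated library and its input, and says nothing of the spread between libraries. Below input, 0 peaks had a log2 fold of −1 or less together with a −log10 p of at least 3 in either set, because every peak with a negative fold has a −log10 p of 0 in both lists. So these lists can show where AGO2 RNA exceeds input, but not where it falls short of it with a test. The immunoprecipitated library of set 1 was 2.18 times as deep as its input and that of set 2 1.44 times, as recovered from the steps between low folds, and absolute depth is unknown. An enriched peak with 1 input read needs at least 18 reads in set 1 and 12 in set 2.

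Markers of myofibres and of other cell types were both found in these lists. All 16 of the 16 myofibre markers had listed peaks in both sets, led by Ttn, the giant spring of the sarcomere, with 664 listed peaks in set 1 and 1411 in set 2. All 8 endothelial, 8 fibroblast, 5 tendon and 5 red blood cell markers also had listed peaks in both sets. The macrophage, adipocyte, Schwann cell, smooth muscle and satellite cell groups lacked some members in at least 1 set. Myofibre markers held 1707 listed peaks in set 1 and 3326 in set 2. These totals come from groups of unlike size, and Ttn makes up much of the myofibre total. The 8 endothelial markers held 95 and 380, the 8 fibroblast markers 188 and 410, and the 8 macrophage markers 41 and 141. Of the endothelial peaks 0 were enriched, which at 3 counts allows up to 3.16% in set 1 and 0.789% in set 2. Smooth muscle markers held 79 and 158 listed peaks, of which 6 and 8 were enriched, in Acta2, Myh11 and Mylk. Their part in the results below was not tested. The WT library of set 1 stood apart, with 8.32% of myofibre marker peaks enriched against 0.511% in set 2, and 5 of 13 red blood cell marker peaks against 0 of 35, which allows up to 8.57%, so results are given for each set on its own.

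The 3′ UTR held a larger share of enriched than of listed peaks in both sets. It held 19.3% of listed and 31.9% of enriched peaks in set 1 (95% Wilson interval 30.3 to 33.5), and 12.2% and 30.4% in set 2 (28.9 to 31.9). The mean over the 2 sets was 31.1% ± 1.06 of enriched peaks (SD, n = 2). Noncoding exons, where enriched peaks lay mostly at microRNA genes, went from 3.21% of listed to 9.22% of enriched peaks in set 1 and from 2.87% to 10.5% in set 2. Coding sequence (CDS) held fewer of the enriched than of the listed peaks in both sets, 46.0% against 51.8% in set 1 and 29.2% against 40.2% in set 2. Introns did too, with 8.25% against 21.4% in set 1 and 26.6% against 41.7% in set 2. The 5′ UTR share stayed small, at 4.49% and 2.90% of enriched peaks.

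**Figure D1:**
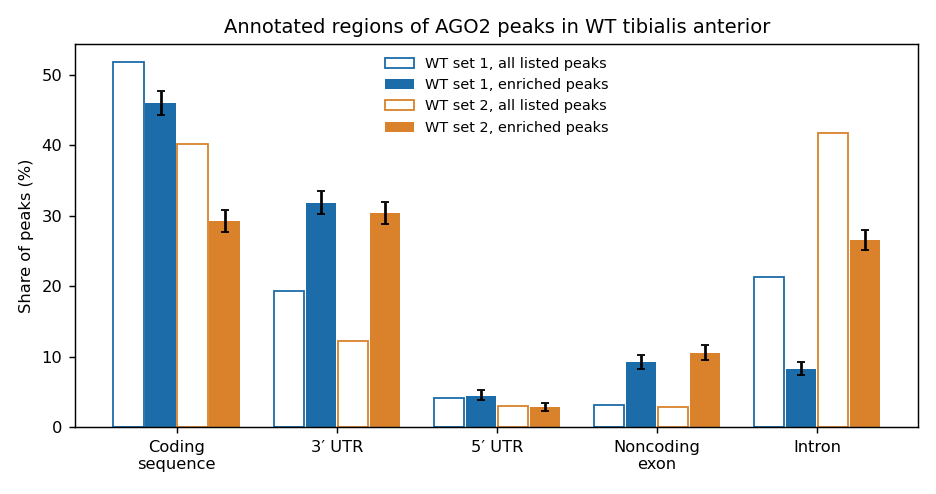
Share of peaks (%) by annotated region at the peak midpoint, for all listed peaks (open bars) and enriched peaks (filled bars) of WT set 1 and WT set 2; error bars are 95% Wilson intervals of the enriched shares, counting error only. In both sets 3′ UTRs and noncoding exons held a larger share of enriched than of listed peaks, and CDS and introns a smaller one.

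The library sets differed most in CDS and introns. The CDS share of enriched peaks was 37.6% ± 11.9 and the intron share 17.4% ± 12.9 (SD, n = 2 sets), both wider than the spread of the 3′ UTR share. With the region read at the 5′ end of the peak instead of its midpoint, the intron share of set 1 was 21% in place of 8.25%. Within a class, 5.89% of listed 3′ UTR peaks were enriched in set 1 and 3.54% in set 2, against 3.17% and 1.03% of CDS peaks and 1.38% and 0.905% of intron peaks. The class with most enriched members was the noncoding exon, at 10.2% and 5.23%. Within 3′ UTRs, enriched peaks did not gather at either end. Their median position was 0.41 of the way along the annotated UTR segment in set 1 and 0.45 in set 2, and 0.42 in both sets for the other 3′ UTR peaks.

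Of the enriched peaks of set 1, 1133 overlapped an enriched peak of set 2 on the same strand, 34.4% of them (32.8 to 36.0). In the other direction 1318 of set 2 did, 37.9% (36.3 to 39.5). Among peaks not enriched, 1.89% of set 1 overlapped an enriched peak of set 2, and 1.31% of set 2 one of set 1. Most peaks that did not recur were listed in the other set with a lower fold: 98.1% of the enriched peaks of set 1 overlapped some listed peak of set 2, and where that peak was not enriched its median log2 fold was 1.75. For enriched peaks of set 2 the same values were 86.3% and 2.04. Across the 64247 listed peaks of set 1 that overlap one of set 2, the log2 folds had a Spearman correlation of 0.45, across peaks, which are not independent and share transcripts. The correlation was 0.69 over noncoding exons, 0.60 over 3′ UTRs and 0.39 over CDS. Peaks often adjoin, so 1133 recurring peaks make 822 stretches when touching enriched peaks are joined.

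Recurrence followed region. Noncoding exon peaks recurred most, with 241 of 304 in set 1 (79.3%, 74.4 to 83.5) and 271 of 367 in set 2 (73.8%). In 3′ UTRs 404 of 1051 recurred from set 1 (38.4%, 35.5 to 41.4) and 438 of 1057 from set 2 (41.4%). CDS peaks recurred in 18.3% of cases from set 1 (16.4 to 20.3) and 35.9% from set 2. Introns ran the other way, with 65.1% from set 1 and 22.4% from set 2. The 1133 recurring sites of set 1 divide into 404 in 3′ UTRs, 278 in CDS, 241 in noncoding exons, 177 in introns, 30 in 5′ UTRs and 3 outside genes. They name 690 genes, of which 569 are protein coding and 101 are microRNA genes, and 404 genes have a single site. At gene level, 820 genes had an enriched peak in both sets, 46.1% of the 1780 of set 1 and 44.9% of the 1826 of set 2.

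**Figure D2:**
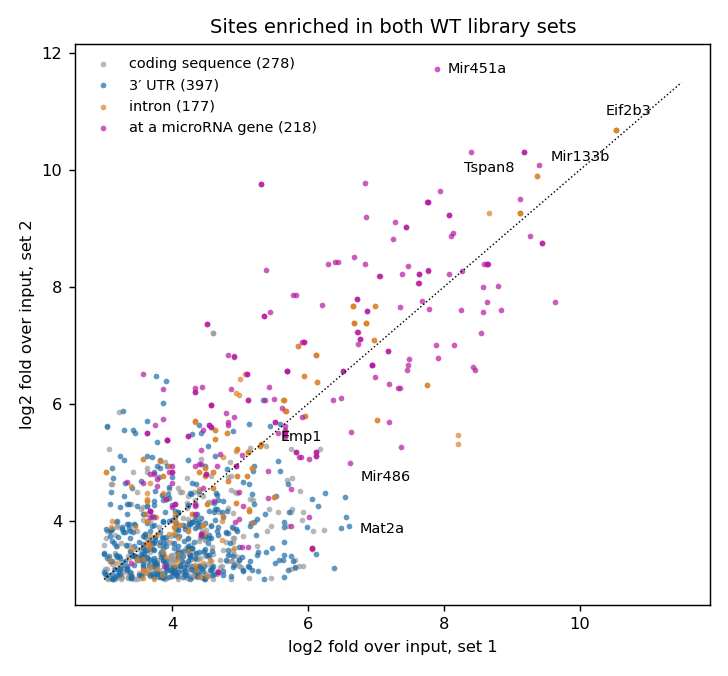
Each point is a recurring site, with its log2 fold over input in WT set 1 on the horizontal axis and in WT set 2 on the vertical axis, coloured by region or by overlap with a microRNA gene (sites in 5′ UTRs and other noncoding exons are not drawn); the dotted line marks equal folds and counts stand in the key. Sites at microRNA genes and a small group of intron sites reach above 8 in both sets, while 3′ UTR and CDS sites lie mostly between 3 and 6.

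As a class, microRNA genes had a larger share of their listed peaks enriched than any annotated region. Of 2202 annotated microRNA genes, 263 had a listed peak in set 1 and 307 in set 2, and 120 and 135 had an enriched one. Both sets enriched 113 of them, 94.2% of those of set 1 and 83.7% of those of set 2. Most of the peaks at microRNA genes were enriched, 55.9% in set 1 and 55.4% in set 2, beside 3.57% and 1.42% of all listed peaks. They made 7.01% and 8.13% of all enriched peaks. Enriched peaks there had a median width of 14 nt in both sets, against 106 and 102 nt over all enriched peaks. Over the 113 genes the median of the highest log2 fold was 5.83 in set 1 and 6.51 in set 2, and 77 had the higher fold in set 2. Where the reference gives the mature arms, the best-covered arm was the same in both sets for 93 of 96 genes. The exceptions were Mir196b, Mir501 and Mir7068.

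The 12 microRNA genes with the highest lower fold of the 2 sets were led by Mir133b, the partner of Mir206 in a myomiR cluster, at 9.41 in set 1 and 10.09 in set 2. Mir30e followed with 9.19 and 10.31, Mir99a with 9.12 and 9.51, and Mir30b with 9.27 and 8.88. Mir27a had 9.45 and 8.76. Mir143, best known from smooth muscle, had 8.65 and 10.71, and Mir378a, which lies within the mitochondrial regulator gene Ppargc1b, had 8.64 and 8.40. Mir29a had 8.40 and 10.31, Mir22 had 8.27 and 8.28, and Mir206 had 8.13 and 8.92. Mirlet7a-2 had 8.08 and 9.23 and Mir149 had 8.79 and 8.02. The highest fold of any microRNA gene in set 2 was at Mir451a, a red blood cell microRNA, with 11.72, against 7.90 in set 1. Mir144, its cluster partner, had 5.32 and 9.77. Globin peaks had their highest log2 folds at 3.61 for Hba-a1 in set 1 and 2.74 for Hba-a2 in set 2.

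The other myomiR genes lay lower on the same scale. Mir133a-1 had 8.15 in set 1 and 7.12 in set 2, and Mir133a-2 had 6.99 and 6.46. Mir1a-2 had 5.02 and 5.14. Mir1a-1 was enriched only in set 1, with 4.71, and had 2.81 in set 2. Mir499, which lies in the slow myosin gene Myh7b, had 4.73 and 2.93, so it passed the threshold in set 1 alone. Mir208b, in the slow myosin gene Myh7, was listed only in set 1, with 2.04 and not enriched. Myh7 itself had 52 listed peaks in set 1 and 1 in set 2. Mir486, in the ankyrin gene Ank1 (chr8:23142555-23142682, plus strand), had 6.62 and 4.99, with 2 of 2 and 4 of 4 listed peaks enriched, and no peak listed in either mir-486 KO library. Ank1 itself had 37 listed peaks in set 1 and 59 in set 2, of which 2 and 0 were enriched, at medians of 1.2 and 0.88. A fold over input compares a microRNA's reads with the input of the same library, so it is not its abundance, and copies with the same mature sequence, such as both miR-16 genes, can share reads.

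Shared seeds tie many of these microRNAs together. The mature microRNAs enriched in both sets that are in the reference table carry 71 seeds, 16 of them on more than 1 of these microRNAs. Members not in that table, among them Mir30b, Mir30d, Mir133a-1, Mir133a-2 and Mir1a-2, are not counted here. The let-7 seed GAGGUAG is on 8, the miR-15 and miR-16 seed AGCAGCA on 6, the miR-17 seed AAAGUGC on 4, and the miR-30, miR-99 and miR-29 seeds on 3 each. Over these 3 members with the miR-30 seed the lower fold of the sets ranged from 7.28 to 9.19. It ranged from 4.0 to 7.62 over the 8 with the let-7 seed.

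Seed matches of the myomiRs were frequent among enriched 3′ UTR peaks. The 7-nt match to the seed of miR-1 and miR-206, ACATTCC, was in 191 of 1051 enriched 3′ UTR peaks of set 1 (18.2%, 16 to 20.6) and 173 of 1057 of set 2 (16.4%, 14.3 to 18.7), with each peak extended by 25 nt on both sides and read on the transcript strand. Among the other 3′ UTR peaks the shares were 3.55% and 2.86%. In recurring 3′ UTR sites it was 24.5%, 99 of 404. The miR-133 match GGACCAA came next, in 7.52% and 10.1% of enriched peaks against 2.39% and 1.94% of the others, and in 11.9% of recurring sites. Then came miR-30 (TGTTTAC) with 7.92% of recurring sites, miR-15 and miR-16 (TGCTGCT) with 6.93%, and miR-29 (TGGTGCT) with 5.45%. The let-7 match CTACCTC was in 5.45% ± 0.850 of enriched 3′ UTR peaks (SD, n = 2 sets), and in 2.57% and 2.17% of the others. Both words, ACATTCC and GGACCAA, were in 5 recurring sites.

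High-scoring recurring 3′ UTR sites with a match to each of these 5 families are shown with the match in capitals, as 30 bases on the transcript strand read from GRCm38.
Ankib1, miR-1/miR-206, chr5:3690517-3690546: actttcatagtctatacttgatACATTCCc
Lrrfip1, miR-1/miR-206, chr1:91116285-91116314: ttactagcagttctagctgagaACATTCCa
Pfkfb3, miR-133, chr2:11472235-11472264: ccaaaacagcaaaataaaatggGGACCAAt
Dusp1, miR-133, chr17:26506058-26506087: tttgctgaactcggcacattcgGGACCAAt
Plagl2, miR-30, chr2:153230845-153230874: ccttagtgattgcagtgaacacTGTTTACa
Zfp36, miR-29, chr7:28377053-28377082: tcgaagcctctcctgagaatccTGGTGCTc
Tet3, miR-29, chr6:83364336-83364365: tgaattgaaatagtctaataaaTGGTGCTa
Atxn7l3b, miR-15/16, chr10:112927031-112927060: tgaggtgagcagaaaagaaaggTGCTGCTt
Cldn12, miR-15/16, chr5:5507542-5507571: tgtatatcttggtagaatgaaaTGCTGCTa
Lrrfip1 lies on the plus strand and the others on the minus strand. Ankib1, a ubiquitin ligase, had log2 folds of 5.33 and 6.07 at this site, and Lrrfip1, a nucleic acid binding protein, 5.56 and 5.02. Pfkfb3, which makes the glycolytic activator fructose 2,6-bisphosphate, had 5.14 and 5.65. Dusp1, a phosphatase of MAP kinases, had 5.19 and 4.85. Several of these sites hold matches to further families. The Cldn12 site also holds a miR-1/miR-206 match, and those of Ankib1 and Pfkfb3 a miR-26 match.

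Enriched peaks are wider than the others, so matches were also counted in a window of fixed length, within 50 nt of the peak centre. The miR-1/miR-206 match then occurred 1.66 times per kb in enriched and 0.325 times per kb in other 3′ UTR peaks of set 1, and 1.18 and 0.206 times in set 2. The ratios were 5.10 and 5.74. For miR-133 they were 3.06 and 5.23. The families of miR-486, miR-378, miR-143, miR-145, miR-122 and miR-124 were not searched, and miR-206 stands for the seed it shares with miR-1. Of the 22 families measured, 13 had more matches per kb in enriched than in other peaks in both sets, and 7 had a ratio of at least 1.5 in both, namely miR-1/miR-206, miR-133, miR-9, miR-26, let-7, miR-30 and miR-29. The miR-9 family was included as a microRNA of nerve rather than muscle, and its ratios were 2.04 and 2.34. Its word ACCAAAG shares the letters ACCAA with the end of the miR-133 word. The miR-15 and miR-16 match, common in recurring sites, was nearly as common in other peaks, with ratios of 1.15 and 1.10. The miR-126 match was in 0 enriched 3′ UTR peaks of both sets, which allows up to 0.285% and 0.284%, and Mir126a had log2 folds of 8.55 and 7.21. Its word CGGTACG was also rare elsewhere, in 0.0417% of the other 3′ UTR peaks of set 1.

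**Figure D3:**
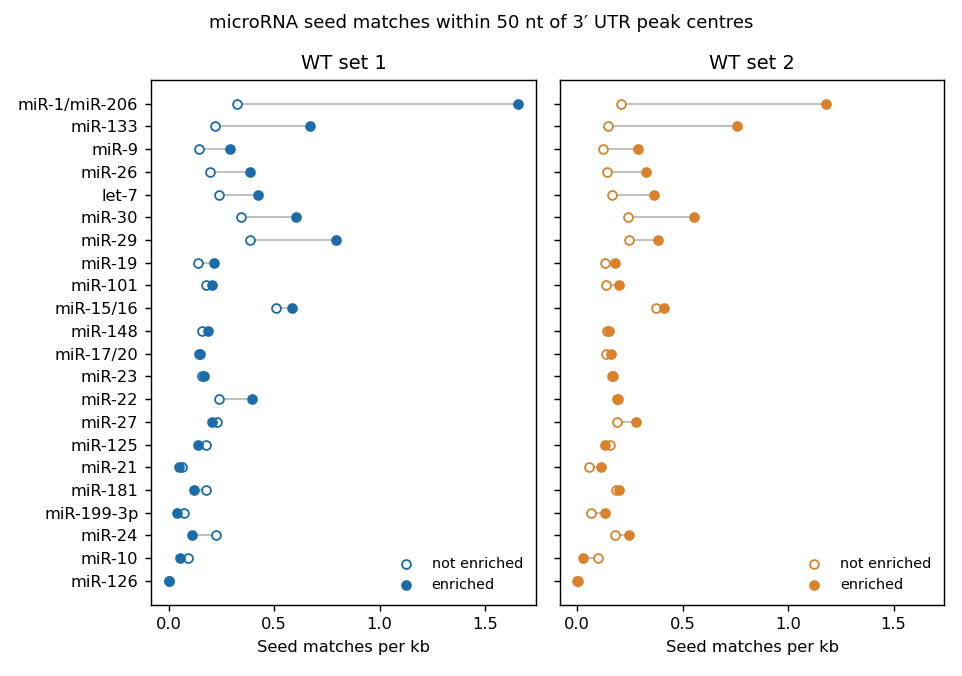
Seed matches per kb within 50 nt of 3′ UTR peak centres for 22 microRNA families, in WT set 1 (left) and WT set 2 (right); filled points are enriched peaks, open points the other listed peaks. The miR-1/miR-206 point of the enriched peaks lies farthest right in both sets, at 1.66 and 1.18 per kb, against 0.325 and 0.206 in the other peaks.

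The miR-1/miR-206 matches were denser near the centre of peaks, enriched or not. In set 1, 176 matches lay within 50 nt of the centre of enriched peaks and 46 between there and 150 nt, which is 1.66 against 0.219 per kb. In set 2, where enriched 3′ UTR peaks are wider (median 152 nt against 131 nt), the values were 126 and 94 matches, or 1.18 against 0.445 per kb. In the other peaks they were 0.325 against 0.0815 per kb in set 1 and 0.206 against 0.0965 in set 2. The median distance from the centre in enriched peaks was −2 nt in set 1 and −3.5 nt in set 2. The base after the match was an adenosine more often in enriched than in other peaks of both sets for 13 of 21 families and less often for 4, which were miR-9, miR-10, miR-148 and miR-199-3p. No test was made of these differences. An adenosine followed 68.9% of 45 let-7 matches in enriched peaks and 37.6% of 402 in others in set 1, and 66.7% of 39 and 41.4% of 474 in set 2. For miR-30, adenosine followed 73.4% of matches in enriched peaks and 56.7% in others of set 1, with 72.9% and 58.1% for set 2. For miR-1/miR-206 they were close, 40.3% and 40.8% in set 1 and 39.7% and 38.1% in set 2. An adenosine at this place is a known feature of strong microRNA sites.

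**Figure D4:**
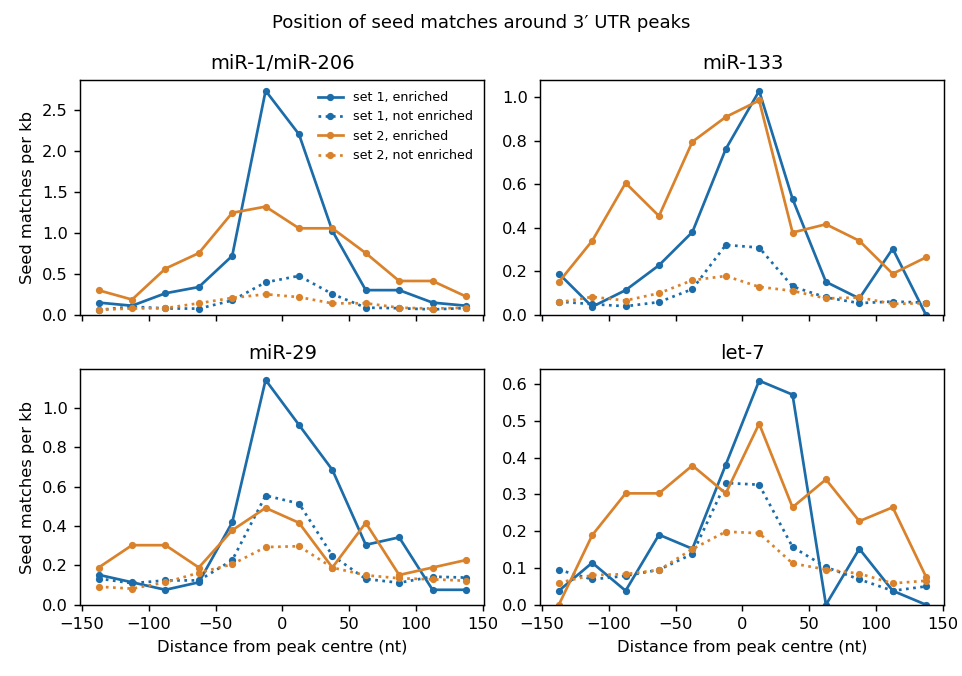
Seed matches per kb in bins of 25 nt against the distance of the match from the centre of 3′ UTR peaks (nt, transcript direction) for 4 families; solid lines are enriched and dotted lines other listed peaks, in WT set 1 and WT set 2. Matches of miR-1/miR-206 and miR-133 were most frequent near the centre of enriched peaks in both sets, and those of miR-29 and let-7 were less sharply placed in set 2.

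Coding sequence held the same myomiR words. Of 1518 enriched CDS peaks in set 1, 8.96% had the miR-1/miR-206 match, against 1.72% of the other CDS peaks, and in set 2 12.1% of 1017 did, against 1.13%. The miR-133 match was in 8.30% and 12.6%, against 1.97% and 1.44%. Among the 278 recurring CDS sites, 51 in 47 genes had the miR-1/miR-206 match and 43 in 34 genes the miR-133 match, and 91 had either. These examples, chosen after their values were seen, are the highest-scoring ones.
Icmt, miR-1/miR-206, chr4:152297409-152297438, plus strand: cgaggcgcgcctcagcctcgctACATTCCt
Trps1, miR-1/miR-206, chr15:50661032-50661061, minus strand: tcagctgttggatcagacaatgACATTCCt
Pbrm1, miR-133, chr14:31117378-31117407, plus strand: aatccaacagcattagcaagtgGGACCAAa
Akap10, miR-133, chr11:61916197-61916226, minus strand: tcatgccttgctggaggctgcaGGACCAAg
Icmt, the methyltransferase of prenylated proteins, had log2 folds of 4.85 in set 1 and 5.01 in set 2. Trps1, a zinc finger repressor, had 4.4 and 4.46, and Pbrm1, a chromatin remodelling subunit, 4.96 and 4.47. The Akap10 site also held a miR-1/miR-206 match.

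Among the 10 genes at the head of the recurring 3′ UTR sites, Vmp1 and 2010111I01Rik owe their place to microRNA genes that lie within the annotated UTR. The Vmp1 site, with 7.25 and 8.83, is the mature miR-21a-5p, and that of 2010111I01Rik, with 7.49 and 6.77, is miR-27b-3p. The highest ordinary 3′ UTR sites were in Tmem106b, a lysosomal membrane protein, with 5.59 and 5.65, and Emp1, an epithelial membrane protein, with 5.45 and 5.62. Ankib1, Pfkfb3 and Lrrfip1 came after these. Plxnd1, a semaphorin receptor of vessels, had 4.90 and 5.53, and Ptbp2, a splicing repressor, 5.59 and 4.85. All 10 sites were enriched in the mir-486 KO library of set 2 as well, and 7 in that of set 1.

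The leading CDS sites lay in Usf3 (5.38 and 5.29), Synm, an intermediate filament protein of muscle (5.75 and 5.23), and Jarid2, a subunit of the Polycomb repressor (5.15 and 5.24). Icmt followed, then Hipk1, a nuclear kinase, with 4.87 and 4.77. Tnrc6b, a GW182 protein that binds AGO2 and carries out silencing, had 4.83 and 4.75. Pdhb, a subunit of pyruvate dehydrogenase, had 5.77 and 4.73, and Mos, a kinase of oocytes, had 4.60 and 7.21 at a peak of 4 nt. In 5′ UTRs the leading genes were 2310002L09Rik (6.47 and 5.05), Ccnk, the cyclin of a transcription kinase (5.38 and 4.81), and 1700021F05Rik (4.85 and 4.63).

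The genes with most recurring sites were Ttn with 11, Mat2a with 9, and 1700021F05Rik and Zfp36 with 7 each. Many of these sites are touching pieces of a single stretch, so the counts also reflect how peaks were split. The Mat2a peaks from chr6:72433021 to 72433460, for example, adjoin one another. All 11 Ttn sites lay in CDS, with log2 folds from 3.25 to 4.97 in set 1 and 3.01 to 3.50 in set 2. They are 11 of 664 listed Ttn peaks of set 1, beside 1133 recurring of 92451 listed peaks over the whole list. Of the 11, 8 held 1 or more of 4 distinct miR-133 matches. Mat2a, which makes S-adenosylmethionine, was enriched almost throughout, with 10 of 11 listed peaks in set 1 and 6 of 8 in set 2, at medians of 5.73 and 3.64. Zfp36, a protein that marks AU-rich mRNAs for decay, had 7 of 8 and 4 of 5 listed peaks enriched. Its 3′ UTR sites carried miR-29 and miR-1/miR-206 matches. Jarid2 and Nedd4, a ubiquitin ligase of muscle, had 6 sites each. Tmem106b and Mir378a had 5, and the other genes with 5 were Ccnk, H19, Usp2, Psmd8, Cct5 and Ell2.

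Most recurring intron sites were as narrow as peaks at microRNA genes. Of the 177 recurring intron sites, 132 were at most 30 nt wide, with a median of 12 nt. By contrast 1.51% of 397 recurring 3′ UTR sites outside microRNA genes were so narrow. The strongest lay in an intron of Eif2b3, a subunit of a translation initiation factor, with 10.54, the highest fold of the set 1 list, and 10.70 in set 2. Tspan8, a tetraspanin, followed with 9.37 and 9.90, and Rbms3, an RNA binding protein, with 9.12 and 9.26. Hs6st2 had 6.99 and 7.68 and Grm5, a glutamate receptor of neurons, 6.97 and 7.09. The sequence at these sites was compared with mature microRNAs in the sense direction. These sites and others of the kind are shown as 30 bases of GRCm38 on the transcript strand, with the longest run shared with the named microRNA in capitals.
Eif2b3, nearest miR-133b-3p, chr4:117041898-117041927, plus strand: aaagattttccccccTCAACCAGCTgtcct
Tspan8, nearest miR-133b-3p, chr10:115822756-115822785, plus strand: tgagcttaGGTCCCCTTCAccagctgtcct
Rbms3, nearest miR-133b-3p, chr9:117375680-117375709, minus strand: atatgGGTCCCCTTCAAtcaggagctccac
Hs6st2, nearest miR-133b-3p, chrX:51504062-51504091, minus strand: ctctttTTTGGTCCCCTcaaaattcaaagg
Grm5, nearest miR-125b-5p, chr7:87979690-87979719, plus strand: tgagggcttTCCCTGAGACCCTAACatatg
Specc1, nearest miR-26a-5p, chr11:62173956-62173985, plus strand: acaaggcttcaagtATCCAGGATgtgcttg
Dclk1, nearest miR-29a-3p, chr3:55464925-55464954, plus strand: caaaaagttTAGCACCATCTGAAAacattt
The first 4 may be read against miR-133b-3p among the mature microRNAs, with T for U.

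The likeness was measured as the fewest single-base edits that turn 1 of 102 mature sequences enriched in both sets into part of a 41-nt window at the peak centre. It was 5 edits at Eif2b3, 3 at Tspan8, 5 at Rbms3, 6 at Hs6st2 and 3 at Grm5, for microRNAs of 22 nt. Within 6 edits, the distance at Hs6st2, 158 of 488 listed intron peaks of set 1 that were not enriched were also found (32.4%), against 112 of the 132 narrow recurring sites (84.8%). Of these 132, 49 came within 4 edits (37.1%), and of the 488 others, a systematic sample of every 40th, 10 did (2.05%). Of the 38 narrow recurring CDS sites, 0 did, which at 3 counts of the total allows up to 7.89%. The nearest microRNA was miR-133b-3p at 16 of the sites within 4 edits, in 7 genes, and miR-22-3p and miR-26a-5p at 8 each. Whether reads of the microRNA itself were placed at these introns was not tested.

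Gene groups showed what the library sets shared and where they parted. The microRNA machinery had more enriched peaks than the whole list in both sets, 7.48% against 3.57% in set 1 and 4.58% against 1.42% in set 2. Most of these peaks lay in Tnrc6a, Tnrc6b, Tnrc6c and Dicer1, with 4, 6, 7 and 5 of 27 in set 1. In set 2 these genes had 9, 7, 7 and 5 of 34, so the excess is not a trait of the whole group. The highest log2 folds of Ago2 itself were 2.57 and 2.47, under the threshold. Of the group's 22 members, 5 had recurring sites, 12 sites in all. Over all genes, 690 had a recurring site, of 12318 with a listed peak in set 1. No allowance was made here or below for the number of peaks per gene. Tnrc6c, like Tnrc6b a GW182 partner of AGO2, had 4 sites in CDS, and Dicer1, the enzyme that cuts microRNA precursors, had 3. Tnrc6a and Tnrc6b had 2 each, and the decapping enzyme Dcp2 had 1.

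Textbook targets of muscle microRNAs also stood above the whole list in both sets, with 5.64% and 3.20% of peaks enriched. In their 3′ UTRs 14 of 81 listed peaks were enriched in set 1 (17.3%) and 19 of 116 in set 2 (16.4%), beside 5.89% and 3.54% of all 3′ UTR peaks. Of 25 members, 8 had recurring sites, beside 690 of 12318 genes listed in set 1. Those of Utrn and Foxo1 lay only in introns. Hdac4, a repressor of MEF2 and a known miR-1 target, had 2 in its 3′ UTR. The site with log2 folds of 5.71 and 4.62 held a miR-1/miR-206 match. The other Hdac4 site, with 6.39 and 3.19, held miR-22 and miR-19 matches but no miR-1/miR-206 match. Ptbp2, a known miR-133 target, and Calm2, a calmodulin gene, also had 2 there, and Calm2 reached 5.14 and 4.63. Twf1, an actin-binding protein and known miR-1 target, had 1 site, with 4.16 and 3.13. Of these sites, that of Twf1, both of Calm2 and the leading one of Ptbp2 held no match to any of the 22 families, and the miR-133 match of Ptbp2 lay at its other site, with 3.00 and 3.45. Utrn, the utrophin gene, had 3 sites, which are touching pieces of a single intron stretch.

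Contractile and metabolic genes parted the sets. Sarcomere genes had 206 of 2389 listed peaks enriched in set 1 (8.62%) and 23 of 4443 in set 2 (0.518%), above the whole list in set 1 and below it in set 2. Recurring sites were found in 8 of 44 members, beside 690 of 12318 genes listed in set 1. Beside Ttn they included Myh2, a fast myosin, with 2, and Myom2, Myl1, Mybpc2, Actn3 and Tmod1 with 1 each. For oxidative phosphorylation and the citrate cycle the shares were 16.9% (73 of 433) and 0.254% (2 of 789), and Atp5a1, a subunit of ATP synthase, was the 1 member with recurring sites, 3 in CDS. Glycolysis and glycogen genes had 11.9% and 1.77%, with sites in Phka1 (3), Eno3 (2), Pgam2 (2) and Gbe1 (1). In the mir-486 KO libraries the sarcomere shares were 0.290% and 0.553%, beside 0.848% and 1.23% of all their listed peaks. The WT library of set 1 thus stood apart from the other 3 in this group, and it also had the largest share over its whole list, 3.57%. Of the enriched peaks of the sarcomere group in set 1, 176 of 206 lay in CDS, and 0 of 76 listed 3′ UTR peaks of the group were enriched. Whether this set 1 signal belongs to the mice or to the library cannot be told apart. Some slow-fibre genes were listed almost only in set 1, although the set 2 list is longer. Myh7 had 52 listed peaks in set 1, 9 of them enriched, against 1 and 0 in set 2. For Myl2 the values were 10 and 8 against 1 and 0. Atp2a2, also of slow fibres, had 33 listed peaks in set 1 and 34 in set 2, and the fast myosin Myh4 had 128 and 304. Whether the sets differ in slow-fibre content was not tested.

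The other groups lay nearer the whole list. Muscle transcription factors had 3.93% and 1.09% of peaks enriched. Their member with most recurring sites was Myf6, the myogenic factor of mature fibres, with 4 sites in CDS and 6 of 7 and 5 of 9 listed peaks enriched. Atrophy and protein turnover genes had 4.0% and 0.638%, with 2 intron sites in Foxo1, which drives atrophy genes. Translation factors had 4.76% and 1.94%, with 2 sites in Pabpc1, the poly(A)-binding protein, and 1 in Eif4g3. Excitation-contraction coupling genes had 2.08% and 0.651%, with 1 site each in the calcium channel subunit Cacna1s and in Trdn. The dystrophin complex and basal lamina had 2.96% and 0.896%, with 2 intron sites in Dmd beside those of Utrn.

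Among long noncoding RNAs, H19, an imprinted transcript that also gives rise to miR-675, had 5 recurring sites, with log2 folds from 4.22 to 5.88 in set 1 and 3.67 to 4.65 in set 2. The nuclear RNA Malat1 had 0 of 24 listed peaks enriched in set 1 and 0 of 50 in set 2, which allows up to 12.5% and 6.0%, and its highest log2 folds were −0.56 and 0.36. Neat1, also nuclear, had highest log2 folds of 0.26 and 2.25, both under the threshold. H19 held all 5 enriched peaks of the group in set 1 and 10 of 12 in set 2, with the other 2 in Airn, and the median log2 fold over the group's listed peaks was −0.71 in set 1 and 1.14 in set 2.

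**Figure D5:**
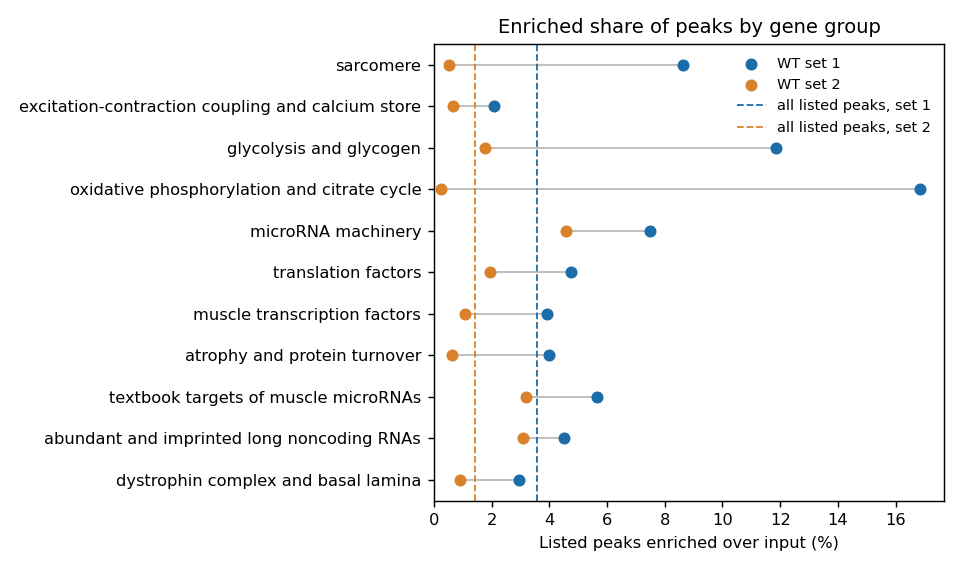
Share of listed peaks enriched over input (%) for 11 gene groups in WT set 1 and WT set 2; dashed lines mark the share over all listed peaks, 3.57% in set 1 and 1.42% in set 2. The microRNA machinery, textbook targets, translation factors, glycolysis genes and long noncoding RNAs lie above their line in both sets. For the machinery this comes mainly from the Tnrc6 genes and Dicer1, and for long noncoding RNAs mainly from H19. Sarcomere and oxidative phosphorylation genes lie far above the line in set 1 and below it in set 2.

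Many WT sites were also found without miR-486. Of the 1133 recurring WT sites, 563 (49.7%) overlapped an enriched peak of the mir-486 KO library of set 1 and 907 (80.1%) one of set 2, and 187 overlapped neither. Sites in noncoding exons were enriched in both mir-486 KO libraries in 85.9% of cases, intron sites in 63.8%, 3′ UTR sites in 35.1% and CDS sites in 17.3%. The mir-486 KO library of set 1 had 1016 enriched peaks in all, 112 of them in CDS. That of set 2 had 3148 and 962. The shares for both libraries, above all that of CDS, are therefore limited by the shorter list of set 1. The difference between genotypes was not tested.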

How the data were processed

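Tibialis anterior muscle was cross-linked with ultraviolet light, AGO2 was immunoprecipitated, and part of each lysate was kept as the paired input. According to the methods and the submitters' processing notes, reads were handled with UMI-tools, FastQC, cutadapt, STAR and SAMtools and peaks were called with CLIPper in each immunoprecipitated library on GRCm38. Replicates were not pooled. The deposited lists give, for each peak, a log2 fold of immunoprecipitated over input reads and a −log10 p, both computed by the authors, with −log10 p capped at 400. Read counts are not in these lists, so depth per library is unknown, and intervals (95% Wilson) and limits from a count of 0 (3 counts) cover counting error only. The lists of direct WT to mir-486 KO comparisons, which hold the authors' own contrasts, were not used.

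Peaks with a log2 fold and a −log10 p of at least 3 were called enriched. A site recurred when an enriched peak of set 1 shared at least 1 nt and the strand with one of set 2, and its score was the lower log2 fold of the best-overlapping pair. Each peak took the GENCODE M21 region at its midpoint, with CDS before 3′ UTR, 5′ UTR, noncoding exon and intron. Seed matches were the complement of bases 2 to 8 of a RefSeq mature microRNA, searched on the transcript strand in peaks extended by 25 nt. With 1 library per set and 2 sets, no test across samples was made, since an exact permutation test of 2 WT against 2 mir-486 KO libraries cannot go below p = 0.333. The named genes were those of the highest-scoring recurring sites (10 in 3′ UTRs, 8 in CDS, 5 in introns, 4 in noncoding exons, 3 in 5′ UTRs), the 8 with most recurring sites, the 12 microRNA genes with the highest score, Mir486 with Ank1, and up to 4 members of each gene list. Some items that this rule selects are not reported here. Members and lists were chosen with earlier results of these data known. The alternatives tried were other fold and p thresholds, overlap of 50%, other region rules, other extensions, leaving out each set and, chosen after seeing the data, leaving out peaks of 30 nt or less or at microRNA genes and merging adjoining peaks. All 7 quantities tested on simulated data were recovered. Python 3.11.15, pandas 2.3.3, numpy 2.4.6, scipy 1.17.1, pysam 0.24.0, samtools 1.23.1 and matplotlib 3.10.9 were used.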

Additional observations from a re-analysis of the deposited data

How the results depend on the processing

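Of 68 values under alternative settings, 42 were labelled unchanged, 26 moved and 0 reversed. Counts were unchanged within a fixed ratio of the main value, and recurrence shares within its Wilson interval. Region and seed shares were unchanged within the SD of the 2 sets, and any correlation of the same sign was called moved. With either set left out, a share always falls within that SD, so those labels do not measure stability. Enriched peaks numbered 5538 in set 1 and 8417 in set 2 at a log2 fold of at least 2, and 1348 and 1170 at 4. Genes with a recurring site numbered 1338 and 241 at these thresholds. The share of set 1 peaks that recurred was 45.0% at a fold of 2 and 32% at 4, 37.5% at a −log10 p of at least 5, and 25.1% with 50% overlap. For set 2 it was 41.1% at a fold of 4, 40.1% at a −log10 p of 5 and 23.8% with 50% overlap. With settings chosen after seeing the data, the set 1 and set 2 shares were 26.4% and 30.5% without peaks of 30 nt or less, 31.2% and 32.3% with adjoining peaks merged, and 29.8% and 33.7% without peaks at microRNA genes. The 3′ UTR share of enriched peaks was 26.6% at a fold of 4, 29% at the 5′ end of the peak and 35.7% with 3′ UTR placed before CDS. The miR-1/miR-206 match was in 14.1% of enriched 3′ UTR peaks at a fold of 2 and 19.2% with 50 nt on both sides. The correlation of folds between sets was 0.49 with 50% overlap and 0.47 over exonic peaks. The cause of these changes was not tested. With either set left out, the CDS share ran from 29.2% to 46.0%, the 3′ UTR share from 30.4% to 31.9%, the intron share from 8.25% to 26.6%, the let-7 share from 4.85% to 6.05% and the miR-1/miR-206 share from 16.4% to 18.2%. No paired analysis was possible because no result comes from a test across samples.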
